A study of Mus musculus with 3 samples.

Results

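The interferon regulatory factors are transcription factors that switch interferon and inflammatory genes on or off. They were followed here in mouse primary pre-osteoclasts, the mononuclear cells that later fuse into bone-resorbing osteoclasts. Members were found by gene symbol in the deposited table of 24067 genes. Those described are the 8 that reached a mean of at least 1 FPKM (fragments scaled to transcript length in kilobases and to the mapped fragments of the library) over the libraries, namely Irf1, Irf2, Irf3, Irf4, Irf5, Irf7, Irf8 and Irf9. The same minimum kept 10358 genes of the whole table.

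All cultures were primary cells from bone, kept with MCSF and RANKL, the cytokines that drive osteoclast formation, for 2 days. Both control groups are labelled WT in genotype and the other Ift88 knockdown. The static control group carried a control short hairpin RNA (shRNA) and received no shear. The sheared control group carried the control shRNA and received orbital shear stress, the fluid flow of a swirled dish, for 24 hours. The sheared Ift88 shRNA group received the same shear and carried an shRNA against Ift88, a gene needed to build the primary cilium, with the knockdown placed before differentiation in the design text. Each group had 1 library, so no difference has a replicate check and no p-value is given. With no static Ift88 shRNA library among them, what the knockdown does by itself and what it does to the shear response cannot be told apart. The sources used here do not give strain, age, number of animals or how the shRNA was delivered.

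Estimated depth was 34750000 to 35250000 fragments per library. Ift88 was at 2.98 FPKM in the static control, 2.71 in the sheared control and 1.197 with Ift88 shRNA, a ratio of 0.442 for the last pair (95% counting interval 0.354 to 0.549), so transcript remained in the knockdown. Counting intervals cover the sampling of fragments only, not the variation between cultures. The osteoclast precursor markers Csf1r, Atp6v0d2, Acp5, Mmp9 and Nfatc1 were all above 15 FPKM in every library. Ocstamp, Calcr and Oscar were under 1 FPKM in each. The rest of the list was expressed, with Ctsk at 12.6 to 29.4 FPKM, Tnfrsf11a at 8.40 to 10.7, Itgb3 at 5.36 to 8.12 and Dcstamp at 3.67 to 7.27. Since some family members are also strongly expressed in lymphoid and dendritic cells, their markers were read too. The B cell markers Ms4a1 and Pax5 were listed at 0 in every library and the B cell markers of the list summed to between 0.509 and 0.701 FPKM. Of the T and NK cell markers, Cd3e, Cd3g and Cd8a were listed at 0, and the 6 in the table summed to at most 0.209 FPKM. Dendritic markers were split: Flt3 was listed at 0 in every library and Zbtb46, Xcr1 and Clec9a were under 1 FPKM, while Cd74 was at 81.02 to 93.4, Itgax at 30.9 to 36.3, H2-Aa and H2-Ab1 between 10.1 and 13.6 FPKM. Of the plasmacytoid markers, Siglech reached at most 0.0263 FPKM, while Tcf4 was at 5.12 to 5.41 and Cox6a2 at 1.41 to 2.79. Over the libraries in the order static control, sheared control and sheared Ift88 shRNA, summed markers were 693.5, 589.7 and 685.2 FPKM for osteoclast precursors, 2466, 2430 and 2446 for macrophages (Cd68 alone gave 1787, 1799 and 1783), 151, 134 and 155 for dendritic cells and 6.64, 7.94 and 7.89 for plasmacytoid dendritic cells.

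The family shares an N-terminal DNA-binding domain that reads the GAAA repeats of interferon-stimulated response elements. Irf3 and Irf7 are the latent factors that Tbk1 and Ikbke phosphorylate downstream of nucleic acid sensors to induce type I interferon. Irf9 joins Stat2 in ISGF3, the complex that answers interferon, and Irf7 is itself one of its targets. Irf1 activates and Irf2 largely represses through the same elements. Irf5 drives inflammatory cytokine genes in macrophages, and Irf4 and Irf8 bind with the ETS factor PU.1. Irf8 is known as a brake on osteoclast formation that keeps NFATc1, the master factor of the lineage, from acting.

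Levels spanned a wide range, and 3 members stood at the top. Irf8 had the highest mean level, 52.1 FPKM, followed by Irf7 at 50.8 and Irf5 at 50.5. The ranges of these 3 over the libraries overlapped, so their order is not settled. In the static library the order was Irf7, Irf5 and Irf8, and in the sheared control library it was Irf8, Irf5 and Irf7. Below them came Irf1 with a mean of 31.2 FPKM, Irf9 at 25.7, Irf2 at 19.7 and Irf3 at 15.9, whose ranges did not overlap with those of their neighbours. Irf4 was far lower at 1.05 FPKM, above only 0.628% of the genes with a mean of at least 1, while Irf8 was above 86.1% of them. The summed level of the family was 265.7 FPKM in the static control, 241 in the sheared control and 233 under shear with Ift88 shRNA. The plot of levels by member shows this order and the small spread of most members next to the distances between them.

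**Figure D1:**
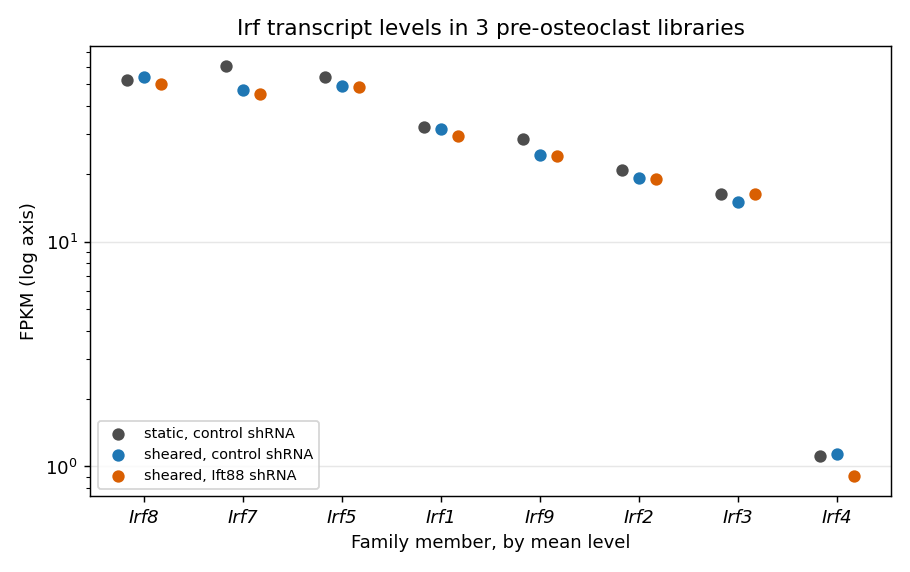
FPKM on a log axis for 8 members ordered by mean level, with 1 point for each library: static with control shRNA, sheared with control shRNA and sheared with Ift88 shRNA. Irf8, Irf7 and Irf5 lie close to 50 FPKM and overlap, Irf4 lies near 1, and the static point of Irf7 lies above its other points.

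Sheared cells were compared with static cells, both with control shRNA, to ask how the family stood after fluid flow. Irf7 and Irf9 were the lowest relative to static cells. Irf5, Irf3 and Irf2 were lower by smaller amounts, and Irf1, Irf4 and Irf8 were close to equal. Irf7 was the one member of 8 that differed by at least 1.2-fold on the scale of FPKM + 1, against 4.2% of all genes in either direction and 2.26% in the lower direction. Of 8 members, 6 were lower by any amount, against 53.9% of all genes. The counting interval lay below a ratio of 1 for 5 members, against 17.9% of all genes. Among genes with a mean of at least 15 FPKM the share was 20.7%. That level was chosen after the values were seen and holds 7 of the 8 members. The intervals of Irf3 and Irf2 ended just below 1, at 0.999 and 0.994. Interval counts were not repeated with other scalings, so these members may not keep their place in the count. The median log2 ratio of the 8 members was -0.11, beside -0.011 over all genes.

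Irf7 (gene ID 54123, chromosome 7, 141263183 to 141266499 in GRCm38) was at 60.1 FPKM in the static control, 47.03 in the sheared control and 45.2 under shear with Ift88 shRNA. The static library was high and both sheared libraries were low. The ratio of sheared to static control was 0.782 (0.743 to 0.824), a log2 ratio of -0.35 on the FPKM + 1 scale, and 102 of 10358 genes had a ratio as low or lower. These levels rest on an estimated 3309 and 2626 fragments, so counting error is small beside the difference. Irf7 made up 22.6% of the family's summed FPKM in the static library and 19.5% in the sheared control library.

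Irf9 (gene ID 16391, chromosome 14, 55603985 to 55610030) was at 28.7, 24.3 and 23.98 FPKM in the static control, sheared control and sheared Ift88 shRNA libraries. The static library was again the highest of the 3. The ratio of sheared to static control was 0.847 (0.796 to 0.902), a log2 ratio of -0.23, as low or lower in 365 of 10358 genes but short of the 1.2-fold threshold. Its partner Stat2 was lower in the same library, with 22.9 FPKM in static and 19.9 in sheared control cells (ratio 0.872, 0.829 to 0.916). The FPKM ratio of Irf9 to Stat2 was 1.25 in the static and 1.22 in the sheared control library, nearly equal.

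The bases before the annotated start sites of Irf7 and Irf9, the members with the lowest shear ratios, are shown with 3 short stretches from other members that hold a match to an element of interferon signalling. Sequences are from RefSeq promoters of GRCm38.p6, each written 5′ to 3′ on the strand of its gene, with capitals for motif matches and none where no match was found. For Irf7 and Irf9 the 100 bases before the outermost end of the RefSeq gene are given. The promoter table places the start of Irf7 inside that span, and it holds another promoter for Irf9 that is not printed.
Irf7, chr7:141266500-141266599, minus strand: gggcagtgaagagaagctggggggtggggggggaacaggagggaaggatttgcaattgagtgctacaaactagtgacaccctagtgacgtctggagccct
Irf9, chr14:55603885-55603984, plus strand: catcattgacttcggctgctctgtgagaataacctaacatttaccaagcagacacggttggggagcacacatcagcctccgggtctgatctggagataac
Irf1, chr11:53769904-53769952, plus strand: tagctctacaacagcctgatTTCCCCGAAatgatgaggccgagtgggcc
Irf2, chr8:46739495-46739549, plus strand: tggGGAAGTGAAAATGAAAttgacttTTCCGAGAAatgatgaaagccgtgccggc
Irf8, chr8:120736167-120736233, plus strand: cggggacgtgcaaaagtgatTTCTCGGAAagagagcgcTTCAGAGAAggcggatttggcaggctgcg

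Both strands of windows of 300 bases, from 250 before to 50 after each start, were searched for 3 motifs. The interferon-stimulated response element core, read as GAAA, any 2 bases and GAAA, was in 3.44% of 32851 promoters, the gamma-activated site that STAT dimers bind, TTCNNNGAA, in 8.30%, and the ETS-IRF composite element, read as GGAA, any 2 bases and GAAA, in 2.72%. The 8 members with an entry had 11 promoters in the table. Irf1 held the gamma-activated site match TTCCCCGAA at position -90 from its start. Irf8 held TTCTCGGAA at -171 and TTCAGAGAA at -153. Irf2 held the composite match GGAAGTGAAA at -247 and the response element match GAAAATGAAA at -241, which overlap, and TTCCGAGAA at -224. In Irf3, Irf4, Irf5, Irf7 and Irf9 these letters were not in the windows searched. A match is a description of letters and not of binding.

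Irf3, the other interferon-inducing factor besides Irf7, was at 16.4 FPKM in the static control, 14.97 in the sheared control and 16.3 under shear with Ift88 shRNA. The sheared control was the low library here and the other two were nearly equal. The ratio of sheared to static control was 0.915 (0.838 to 0.999). The FPKM ratio of Irf7 to Irf3 was 3.68 in the static, 3.14 in the sheared control and 2.78 in the sheared Ift88 shRNA library, highest in static cells.

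Irf1, the activator, was at 32.4, 31.6 and 29.5 FPKM in the static control, sheared control and sheared Ift88 shRNA libraries, and its shear ratio of 0.977 (0.920 to 1.04) included 1. Irf2, which competes for the same elements, was at 20.8, 19.2 and 18.97 FPKM, with a shear ratio of 0.927 (0.865 to 0.994). The balance of the pair differed little, with an FPKM ratio of Irf1 to Irf2 of 1.56 in static, 1.64 in sheared control and 1.56 in sheared Ift88 shRNA cells. The predicted non-coding genes Gm31172 and Gm39170 overlap the Irf2 locus in RefSeq, and whether counting used strand is not given in the sources used here.

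Irf5, the inflammatory factor, was at 53.96 FPKM in the static control, 48.95 in the sheared control and 48.5 in the sheared Ift88 shRNA library, with the static library highest. The shear ratio was 0.907 (0.866 to 0.95). Irf5 overlaps the end of Tnpo3, a nuclear import gene on the opposite strand, by 1043 bases, which makes its level less certain if strand was not used. Tnpo3 had 18.1 FPKM in static and 18.4 in sheared control cells.

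Irf8, the osteoclast brake (gene ID 15900, chromosome 8, 120736358 to 120756694), was at 52.4, 53.9 and 50.05 FPKM in the static control, sheared control and sheared Ift88 shRNA libraries. The shear ratio of 1.03 (0.985 to 1.08) included 1. Irf4, which shares its partner PU.1, was at 1.12, 1.14 and 0.909 FPKM, and its shear ratio of 1.02 (0.825 to 1.26) is wide because it rests on 178 and 184 fragments. In every library Irf8 exceeded Irf4, with FPKM ratios of 46.9, 47.4 and 55.05.

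Markers of other cells differed between the same libraries. The 8 neutrophil markers in the table summed to 68.5 FPKM in the static, 35.2 in the sheared control and 37.1 in the sheared Ift88 shRNA library. All 4 of those with a mean of at least 1 FPKM were lower in sheared than in static control cells (all genes 53.9%). The 8 stromal markers summed to 10.3, 7.62 and 9.87 FPKM. Of 9 macrophage markers 7 were lower with shear (all genes 53.9%), with a median log2 ratio of -0.18. By at least 1.2-fold 3 were lower, C1qa, C1qb and Fcgr1 (all genes 2.26%). Of 5 dendritic markers with a mean of at least 1 FPKM, 4 were lower (all genes 53.9%), with a median of -0.15. H2-Aa and H2-Ab1 were lower by at least 1.2-fold (all genes 2.26%). With so few markers per list these counts are weak. The part of these cells in the Irf7 and Irf9 differences was not tested. In such bulk libraries, fewer cells of a type and less RNA per cell cannot be told apart.

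**Figure D2:**
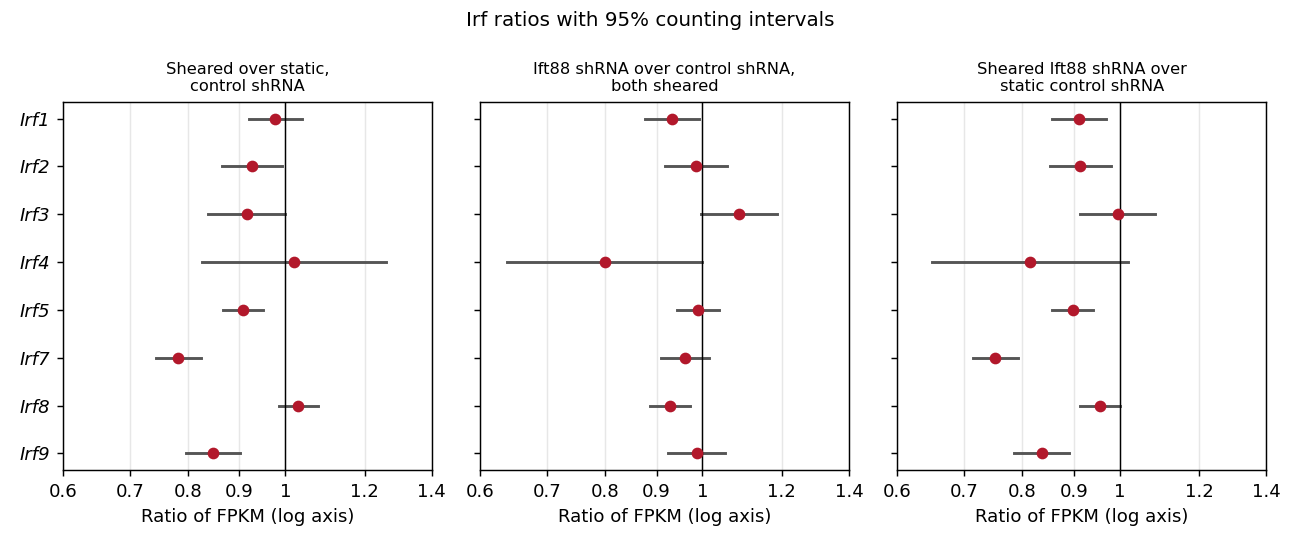
FPKM ratios on a log axis with 95% counting intervals (bars) for 8 members in 3 comparisons, where a vertical line marks a ratio of 1. In the shear panel Irf7 at 0.782 and Irf9 at 0.847 lie farthest below 1 and Irf8 at 1.03 lies above it; in the Ift88 shRNA panel both lie near 1.

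The sheared Ift88 shRNA library was then set against the sheared control library, which the shear comparison also uses. On the FPKM + 1 scale no member differed by 1.2-fold, against 5.54% of all genes, or 2.29% lower and 3.25% higher, while with 0.1 added in place of 1 the low-level member Irf4 did. The largest differences were in Irf4, Irf8 and Irf1 on the lower side and Irf3 on the higher side. The median log2 ratio of the 8 members was -0.038, beside 0.010 over all genes. The members split 7 lower to 1 higher, against 46.4% of all genes lower. With libraries scaled to equal FPKM totals, however, Irf2, Irf5 and Irf9 lay on the higher side. The split was then 4 to 4, against 35.8% of all genes lower. That scaling also moved the calls over all genes from 237 lower and 337 higher to 190 and 455.

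Irf8 had a ratio of 0.928 (0.887 to 0.971) with Ift88 shRNA and Irf1 a ratio of 0.933 (0.877 to 0.992). Irf4 had a ratio of 0.799 (0.638 to 0.998) from 184 and 146 fragments. These 3 were the members whose interval lay below 1, against 13.5% of all genes. The upper limits of Irf4 and Irf1, 0.998 and 0.992, were close to 1. This count was not repeated with equal FPKM totals, the scaling that changed the split of members. Irf3 had a ratio of 1.09 (0.996 to 1.19), an interval that included 1. Irf7 and Irf9 had ratios of 0.961 (0.910 to 1.02) and 0.987 (0.924 to 1.05), so the knockdown library stood beside the sheared control and not beside the static one for both. Irf5 and Irf2 had ratios of 0.990 and 0.986, both with intervals that included 1.

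Against the static control, the sheared Ift88 shRNA library had a ratio of 0.752 (0.714 to 0.792) for Irf7 and 0.836 (0.785 to 0.890) for Irf9. This pair uses the same single static library as the shear comparison, so its values are not a second observation. On the FPKM + 1 scale Irf7 was the one member called at 1.2-fold, against 9.27% of all genes in either direction and 4.48% lower. Irf4 had a ratio of 0.814 (0.650 to 1.02) and was called as well with 0.1 added in place of 1. All 8 members were lower by some amount, against 50.1% of all genes, and 5 had an interval below 1, against 19.6%. Irf5 had a ratio of 0.898 (0.857 to 0.941), Irf1 of 0.912 (0.857 to 0.970) and Irf2 of 0.914 (0.852 to 0.980). Irf3, at 0.995 (0.913 to 1.09), was nearly equal and its side of 1 changed with the scaling. Shear and knockdown cannot be told apart in this pair.

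**Figure D3:**
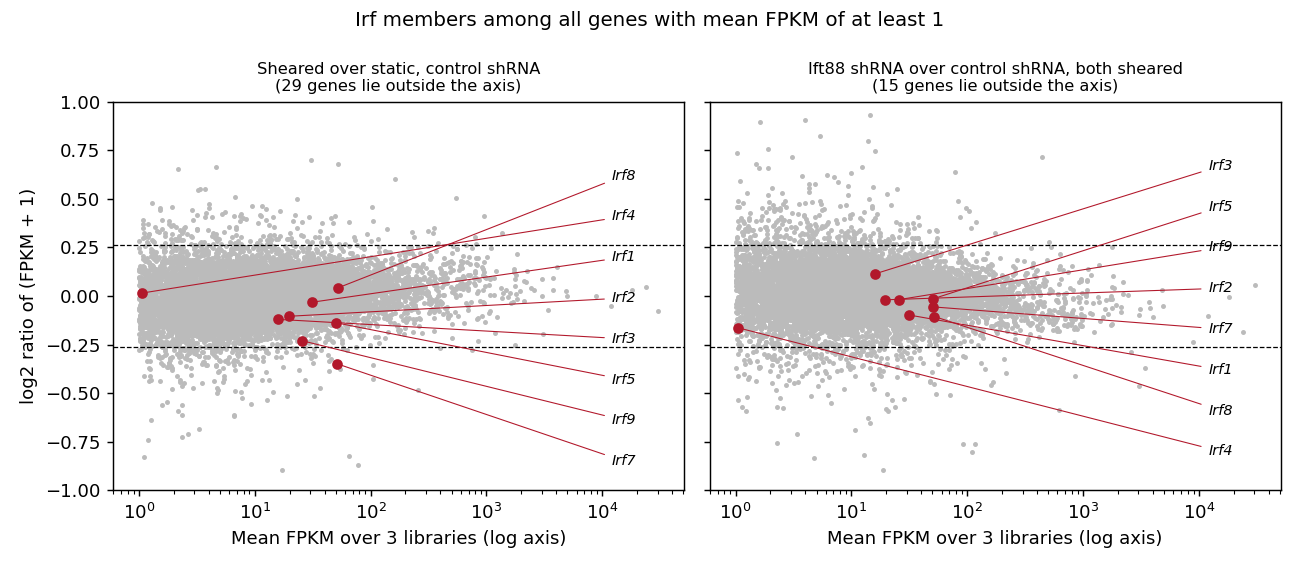
Mean FPKM over the 3 libraries (log axis) against the log2 ratio of FPKM + 1 for 10358 genes in grey, with 8 members in red and dashed lines at 1.2-fold. With shear Irf7 lies below the lower line at -0.35 and Irf9 just above it at -0.23; with Ift88 shRNA all 8 members lie between the lines, from -0.16 for Irf4 to 0.11 for Irf3.

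The genes around the family were read from lists of its sensors, partners, regulators and targets. Some lists share members. Of 27 sensors and adaptors upstream of Irf3, Irf5 and Irf7, 25 were lower and 2 higher in sheared than in static control cells, against 53.9% of all genes lower. Their median log2 ratio was -0.12, beside -0.011 over all genes. Of these 1 passed 1.2-fold (all genes 2.26% lower), Ifih1, which encodes the RNA sensor MDA5, at 6.23 and 4.59 FPKM (ratio 0.737, 0.659 to 0.823). The related sensor gene Ddx58, for RIG-I, was at 18.0 and 14.8 FPKM. The endotoxin receptor gene Tlr4 was at 18.4 and 15.7 FPKM. With Ift88 shRNA 20 of the 27 were higher (all genes 53.6%) and 2 passed 1.2-fold (all genes 3.25% higher). These were the adaptor gene Traf3, at 8.72 against 6.89 FPKM, and the kinase gene Irak2, at 22 against 17.9.

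Interferon ligand genes were listed at or near 0. Ifna2 and Ifna4 were listed at 0 in every library, and Ifnb1 was at 0, 0.0482 and 0.0482 FPKM in the static control, sheared control and sheared Ift88 shRNA libraries. The receptor gene Ifnar1 was at 25.5, 25.7 and 29.0 FPKM, highest with Ift88 shRNA. None of the 10 receptor and JAK-STAT genes with a mean of at least 1 FPKM passed 1.2-fold with shear (all genes 4.2%) or with Ift88 shRNA (all genes 5.54%). With shear 70% of them were lower (all genes 53.9%). The share was 50% after centring for length and GC (all genes 49.7%) and 90% with equal FPKM totals (all genes 59.4%). With Ift88 shRNA Stat2 was at 21.7 against 19.9 FPKM in the sheared control (ratio 1.09, 1.04 to 1.15). Irf9, at 23.98 against 24.3 FPKM, had a ratio of 0.987, and the FPKM ratio of Irf9 to Stat2 was 1.1 in that library.

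ISGF3 targets stood lower in sheared cells in 31 of 31 members with a mean of at least 1 FPKM (all genes 53.9%). Of these, 13 were lower by at least 1.2-fold (all genes 2.26%). The median log2 ratio of the 31 was -0.25, beside -0.011 over all genes. This list overlaps a set of antiviral genes whose direction was known when the list was chosen, so it is no separate evidence. Mx1, an antiviral GTPase gene, had 4.94 FPKM in static and 2.70 in sheared control cells (ratio 0.547, 0.465 to 0.642). Ifit3, which encodes an antiviral adaptor, had 16.0 and 10.7 FPKM (ratio 0.671, 0.603 to 0.745). With Ift88 shRNA 25 of the 31 were higher than in the sheared control (all genes 53.6%), none by 1.2-fold (all genes 3.25% higher). The median was 0.098, beside 0.010 over all genes. Mx1 was one of the lower ones, at 2.30 against 2.70 FPKM. In that comparison Irf7 and Irf9 had log2 ratios of -0.056 and -0.019, while Stat2 had 0.12. Whether these differ beyond the variation between cultures was not tested.

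Irf1 targets were lower in 12 of 17 members with shear (all genes 53.9%), with 1 past 1.2-fold (all genes 2.26% lower), the guanylate-binding protein gene Gbp3 at 4.57 and 3.35 FPKM. The immunoproteasome genes Psmb8, Psmb9 and Psmb10 went the other way, at 89.9 and 96.8, 54.7 and 58.3, and 68.0 and 73.1 FPKM; they were chosen after their values were seen. With Ift88 shRNA 2 Irf1 targets passed 1.2-fold (all genes 5.54%), Gbp6 at 0.863 against 1.3 FPKM and Socs1 upward. Of the 11 Irf5 inflammatory targets only Tnf, Ccl3, Ccl4 and Ccl5 had a mean of at least 1 FPKM, and Il12a was listed at 0 in every library. All 4 of these were lower with shear (all genes 53.9%) and none by 1.2-fold (all genes 2.26% lower). Ccl3 was nearly equal, at 86.41 FPKM in static and 86.39 in sheared control cells. With Ift88 shRNA 2 were lower and 2 higher (all genes 46.4% lower). Ccl4, a chemokine gene, was at 64.8, 57.1 and 44.6 FPKM in the static control, sheared control and sheared Ift88 shRNA libraries. It was the one past 1.2-fold with Ift88 shRNA (all genes 2.29% lower). Irf4 targets had 6 measured members, 4 of them lower with shear (all genes 53.9%), and Chil3, a chitinase-like gene of myeloid cells, had 4.32 FPKM in static and 1.46 in sheared control cells.

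Of 17 measured genes listed as macrophage targets of Irf8 with PU.1, 13 were lower with shear (all genes 53.9%), with a median log2 ratio of -0.048. The list does not separate genes that Irf8 activates from genes it represses, so a count of directions has no single reading. The Fc receptor gene Fcgr1 was the one past 1.2-fold (all genes 2.26% lower), at 5.86 and 4.52 FPKM, and it was at 3.49 FPKM with Ift88 shRNA. With Ift88 shRNA 9 were lower and 8 higher (all genes 46.4% lower), with Fcgr1 and Asah1 lower by at least 1.2-fold (all genes 2.29%). The largest difference was in Asah1, for acid ceramidase, at 74.1 against 129.9 FPKM (ratio 0.570, 0.553 to 0.587). Spi1, which encodes PU.1 and was picked with its values in view, was at 231, 241 and 254 FPKM, far above Irf8 in every library.

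Several genes listed as osteoclast genes repressed through Irf8 differed by more than 1.2-fold. The listing is not evidence that Irf8 represses each gene. The Irf8 transcript itself had ratios of 1.03 with shear and 0.928 with Ift88 shRNA. Whether Irf8 has a part in these differences was not tested. With shear, 8 of the 9 with a mean of at least 1 FPKM were lower (all genes 53.9%), 4 by at least 1.2-fold (all genes 2.26%). The exception was the integrin gene Itgb3, chosen after its values were seen, which was higher at a ratio of 1.32. Ctsk, the collagen-degrading protease gene, was at 29.4 and 12.6 FPKM in static and sheared control cells, and Acp5, for tartrate-resistant acid phosphatase, at 97.7 and 52.9. With Ift88 shRNA 8 of 9 were higher (all genes 53.6%), 5 by at least 1.2-fold (all genes 3.25%). The median log2 ratio of the 9 was 0.31, beside 0.010 over all genes. The 5 were Acp5, Ctsk, Dcstamp, Mmp9 and the RANK receptor gene Tnfrsf11a. The exception was the proton pump subunit gene Atp6v0d2, the most abundant of the 9, with a ratio of 0.914 (0.894 to 0.935). Tnfrsf11a and Atp6v0d2 were picked with their values in view. The matrix protease gene Mmp9 was at 85.5 against 39.3 FPKM and the fusion gene Dcstamp at 7.27 against 3.67. Nfatc1, the factor Irf8 restrains, was at 16.2, 15.3 and 16.9 FPKM in the static control, sheared control and sheared Ift88 shRNA libraries; it was picked with its values in view.

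Partners, corepressors and negative regulators were mixed. Of 19 partners, 11 were lower and 8 higher with shear (all genes 53.9% lower), and 2 passed 1.2-fold in opposite directions (all genes 2.26% lower and 1.94% higher). Batf2, an AP-1-like partner of Irf1, had 5.47 FPKM in static and 4.05 in sheared control cells, and Cebpb, a myeloid factor, at 54.4 and 71.1. Irf2bp2, a corepressor that binds Irf2, was at 32.4, 32.5 and 37.7 FPKM, highest with Ift88 shRNA. Of 17 negative regulators, 8 were lower and 9 higher with shear (all genes 53.9% lower) and none passed 1.2-fold (all genes 4.2%). With Ift88 shRNA 12 of 17 were higher (all genes 53.6%), and 2 passed 1.2-fold higher and 1 lower (all genes 3.25% and 2.29%). Socs1 and Socs3, which encode feedback inhibitors of JAK kinases, were at 2.76 against 1.72 and 1.79 against 1.13 FPKM, with ratios of 1.6 (1.31 to 1.97) and 1.59 (1.22 to 2.08). Nlrc3, an inhibitor of the DNA-sensing pathway, was at 2.65 against 3.67 FPKM.

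**Figure D4:**
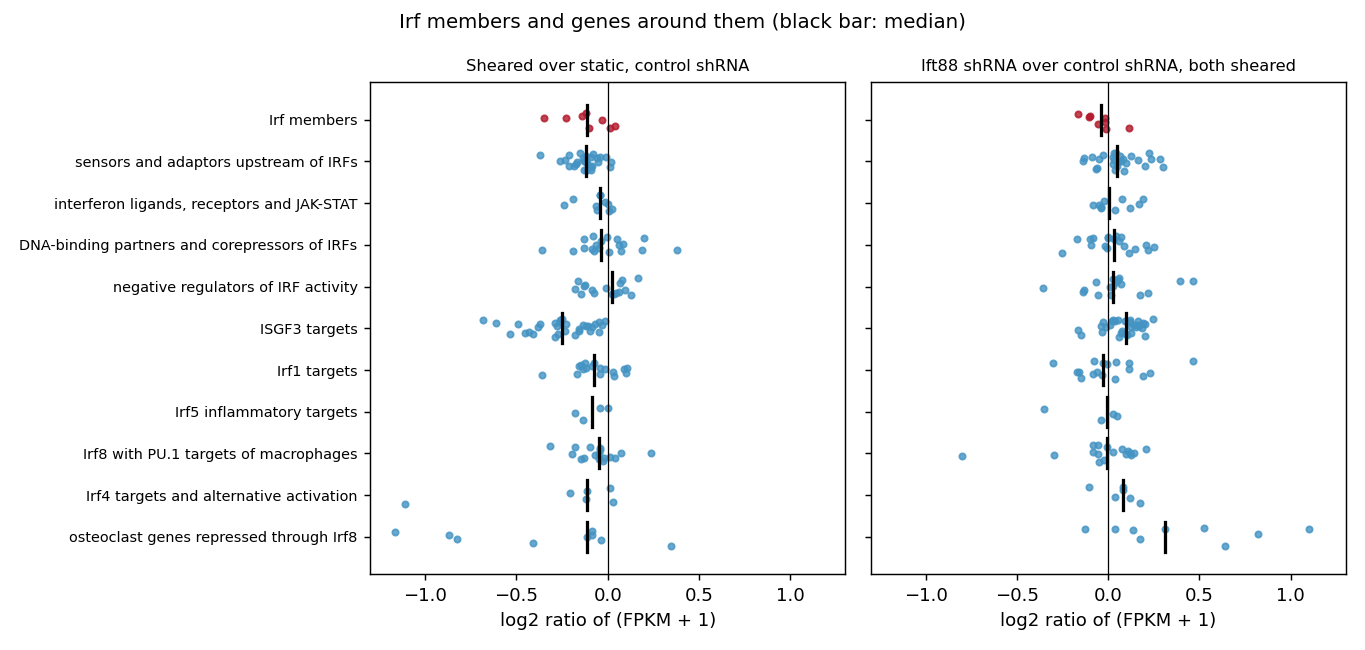
Log2 ratios of FPKM + 1 for each measured gene (points) and the median (black bar) of the Irf members and 10 gene lists around them, for sheared over static control (left) and Ift88 shRNA over control shRNA under shear (right). ISGF3 targets have medians of -0.25 and 0.098, the Irf members -0.11 and -0.038, and osteoclast genes spread widest.

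Irf7 and Irf9 had the widest range of log2(FPKM + 1) over the libraries, 0.40 and 0.25, though on FPKM itself the highest over the lowest library was 1.33 for Irf7, 1.25 for Irf4 and 1.196 for Irf9. The genes whose pair of log2 ratios lay nearest to each were sought among 7548 others with a mean of at least 5 FPKM. For Irf7 these were Ccl6, Gm21188, Ppid, Mndal and Irgm2, at distances of 0.020 to 0.042. Ccl6, a chemokine gene, was at 123.9, 96.8 and 91.8 FPKM, and Irgm2, an interferon-inducible GTPase gene, at 7.73, 5.90 and 5.83. For Irf9 they were Chordc1, Tmem176a, Gnb4, Eif4a2 and Gid4, at distances of 0.0095 to 0.014. A pattern over 3 libraries is only 2 numbers, so nearness describes these libraries.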

How the data were processed

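RNA from 3 mouse pre-osteoclast cultures, 1 library per group, was sequenced (TRIzol extraction and an Illumina TruSeq mRNA kit, per the labels' protocols). The values are FPKM as deposited by the authors. Per the submitters' processing notes, the build was mm10 and the tools were Cufflinks 2.2.1, TopHat2 2.0.13, Trimmomatic 0.32 and bcl2fastq 1.8.4. The sources used here give no annotation release, settings or strand. FPKM is a share of a library, so abundant genes move all others.

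Log2 ratios were computed as (FPKM + 1) over (FPKM + 1), a scale that understates low genes, for genes with a mean of at least 1 FPKM. A gene was called at 1.2-fold. Ratios quoted with intervals are of FPKM without the added 1. Depth came from the steps between low FPKM values in genes with 1 transcript of at least 1000 bases (GENCODE M21 lengths less 180 bases for the fragment). Between 61.9% and 62.7% of values up to 10 fragments were whole within 0.1, so fragments are estimates and no count test was run. Intervals are 95% Clopper-Pearson. The depth estimate was tested on simulated data.

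Groups were taken from sample titles. Coordinates and promoters come from RefSeq (GRCm38.p6). Named genes were the members, Ift88, up to 4 genes per list with the largest difference, and the 5 nearest patterns to each of 2 members. The members, the 10 gene lists and the 8 marker lists were chosen with earlier results of these data known. Some genes of the family and lists are not reported here, though list counts and sums include them. Alternatives varied the pseudocount, filter, scaling, threshold, and length and GC correction. Python 3.11.15, numpy 2.4.6, pandas 2.3.3 and scipy 1.17.1 were used.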

Additional observations from a re-analysis of the deposited data

How the results depend on the processing

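With shear, 1 member (Irf7) was called at 1.2-fold, and also with pseudocounts of 0.1 and 5, no filter, a mean of at least 5 FPKM, both scalings and the length and GC correction. It was 3 members at 1.1-fold (22.8% of all genes), 0 at 1.5-fold (0.454%) and 5 by counting intervals excluding 1 (31.9%). With Ift88 shRNA, 0 members became 1 with a pseudocount of 0.1, 1 at 1.1-fold (23.3%) and 3 by counting intervals (32.0%). Against static, 1 member became 2 with a pseudocount of 0.1, 4 at 1.1-fold (32.6%), 0 at 1.5-fold (0.743%) and 5 by counting intervals (40.8%). With equal FPKM totals, 4 members in place of 7 were lower with Ift88 shRNA. So were 26.3% of partners and corepressors and 12.9% of ISGF3 targets, against 35.8% of all genes in place of 46.4%. Without the filter, 30% of Irf5 targets and 25% of Irf4 targets were lower with Ift88 shRNA (all genes 43.4%). The cause was not tested. Over all genes, calls were 4.2% with shear, 5.54% with Ift88 shRNA and 9.27% against static; they were 7.44%, 9.08% and 13.4% with a pseudocount of 0.1, and 1.4%, 1.78% and 3.49% with 5. The shear log2 ratio ranged from -0.40 to -0.32 for Irf7, -0.25 to -0.20 for Irf9 and 0.016 to 0.053 for Irf8. No paired analysis was possible because each group had 1 library. Depth limits Irf4, with 146 to 184 fragments. Counting intervals were computed with the deposited scaling only.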
